A study of Homo sapiens with 17 samples.

Results

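The promoter contacts and the H3K4me1 of POU5F1, SOX2, SALL4, PRDM14, LIN28A and LIN28B, 6 genes of the core pluripotency network, were compared between naive and primed human pluripotent stem cells. Both states were the H9 NK2 embryonic stem cell line, a single line, kept at 37 °C in 5% O2 and 5% CO2. Naive cells were grown in t2iL+PKCi medium, which holds PD0325901 (1 µM, a MEK inhibitor), CHIR99021 (1 µM, a GSK3 inhibitor), the cytokine LIF (20 ng/ml) and Go6983 (2 µM, a protein kinase C inhibitor), on Matrigel. Primed cells were grown in TeSR-E8 on Vitronectin. Contacts came from promoter capture Hi-C (PCHi-C), in which the HindIII fragments that carry promoters (baits) are pulled out of a Hi-C library, with 1 list per state made from 2 pooled replicates. Each listed contact has a CHiCAGO score, which rises with the excess of read pairs over the count expected at that distance, and contacts scoring 5 or more were listed. H3K4me1, measured by CUT&RUN on separately prepared cells, was available for 2 naive and 3 primed libraries as log2 RPM (reads scaled to the size of each library) in 500 bp tiles.

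The lists carried no gene names, so a bait was given to a gene where the baited fragment held a GENCODE 44 transcript start of that gene or the 1000 bp upstream of it. By this rule 6 of 15982 baits belonged to the genes: 2 to LIN28B and 1 each to SOX2, SALL4, LIN28A and POU5F1. PRDM14 had no bait in either list. The POU5F1 bait held only an upstream alternative start, and the fragment with the main POU5F1 start was in neither list.

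POU5F1 (OCT4), SOX2, SALL4 and PRDM14 encode DNA-binding proteins that keep stem cells pluripotent, and OCT4 and SOX2 often bind DNA side by side. LIN28A and LIN28B encode RNA-binding proteins that block the maturation of let-7 microRNAs. Genes of this kind can remain expressed in both pluripotent states while different enhancers contact their promoters, and in mouse Pou5f1 is the textbook case, with a distal enhancer used in naive cells and a proximal one in primed cells. H3K4me1 is a histone mark found at enhancers, whether active or poised.

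The regions on which the comparison turned are shown by the middle 300 bases of 4 tiles, read 5′ to 3′ on the plus strand of the GRCh38 reference genome. The first is the naive-higher SOX2 contact tile with the largest difference among those free of Alu-type runs (9-letter runs typical of Alu repeats), and the second the primed-higher SOX2 contact tile with the largest difference. The others hold the largest difference of their kind: primed-higher at a LIN28B contact, within PREP, and naive-higher upstream of POU5F1. Capitals mark matches to the searched motifs (SOX core CATTGT, TFAP2 GCCNNNGGC, OTX TAATCC).
SOX2 contact, higher in naive, chr3:181893601-181893900: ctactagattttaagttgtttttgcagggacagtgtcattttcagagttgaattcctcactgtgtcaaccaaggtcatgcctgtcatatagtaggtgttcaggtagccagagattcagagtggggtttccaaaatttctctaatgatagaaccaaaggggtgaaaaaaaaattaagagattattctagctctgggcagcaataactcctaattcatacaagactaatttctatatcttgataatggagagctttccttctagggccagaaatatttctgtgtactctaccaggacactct
SOX2 contact, higher in primed, chr3:182212601-182212900: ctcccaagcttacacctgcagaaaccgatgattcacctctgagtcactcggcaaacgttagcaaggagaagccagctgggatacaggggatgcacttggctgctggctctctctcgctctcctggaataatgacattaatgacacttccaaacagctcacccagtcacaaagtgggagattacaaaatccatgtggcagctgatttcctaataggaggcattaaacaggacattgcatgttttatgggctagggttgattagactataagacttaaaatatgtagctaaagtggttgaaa
LIN28B contact, higher in primed, chr6:105398101-105398400: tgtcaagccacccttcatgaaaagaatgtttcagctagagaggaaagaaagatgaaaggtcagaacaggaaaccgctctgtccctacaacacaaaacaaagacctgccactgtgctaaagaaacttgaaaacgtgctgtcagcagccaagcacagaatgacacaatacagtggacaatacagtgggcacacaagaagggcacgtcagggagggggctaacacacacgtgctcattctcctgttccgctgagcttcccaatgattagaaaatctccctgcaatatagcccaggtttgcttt
POU5F1 upstream, higher in naive, chr6:31176101-31176400: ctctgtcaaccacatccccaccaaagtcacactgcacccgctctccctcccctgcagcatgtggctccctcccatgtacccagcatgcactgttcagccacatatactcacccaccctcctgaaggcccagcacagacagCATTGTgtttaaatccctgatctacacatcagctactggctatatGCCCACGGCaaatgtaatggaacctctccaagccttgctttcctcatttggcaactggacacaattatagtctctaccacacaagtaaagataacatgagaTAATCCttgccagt

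The 6 baits had 68 interactions, 35 in naive and 51 in primed cells. Of these, 17 were listed in naive cells only, 18 in both states (shared) and 33 in primed cells only, beside 31.0% naive-only, 30.5% shared and 38.5% primed-only among the 128955 interactions of all baits. These lists pool replicates, so no test of a contact was possible, and a contact listed in 1 state can score just under 5 in the other. Where partners within 10 kb of each other were taken as the same contact, 14 interactions were naive-only, 40 shared and 14 primed-only. H3K4me1 of a fragment was the mean log2 RPM of its tiles, and all 88413 fragments of the lists were fitted together with limma, with Benjamini-Hochberg adjustment and a threshold of 0.05. Over all fragments, 14.2% were higher in naive and 8.99% higher in primed cells. Of the 67 bait and partner fragments of the 6 baits, 7 (10.4%) were higher in naive and 14 (20.9%) higher in primed cells, and the median difference, primed minus naive, was 0.31 on the log2 scale against -0.06 over all fragments. Without naive replicate 1 the primed-higher count was 4, without naive replicate 2 the naive-higher count was 2, and among fragments above 0 in at least 2 libraries the counts were 2 naive-higher and 0 primed-higher. All 14 primed-higher fragments were partners of SOX2 or LIN28B.

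The H3K4me1 libraries held 6743809 to 26596518 reads, and a tile without reads was deposited as the log2 RPM of 0.9 reads, which ranged from -4.89 in the deepest library to -2.91 in the shallowest. The floor is thus lower in deeper libraries, and several weakly marked fragments rest on few reads. An exact permutation test of 2 against 3 libraries cannot give a p below 0.1, so tests rest on the fit across all fragments. As a check of the state labels, 4 of 9 baits of naive marker genes were higher in naive cells (primed minus naive -3.34 for TRIM60, -2.82 for DPPA5, -2.24 for HORMAD1 and -1.72 for DPPA3 on the log2 scale) and 1, ESRRB, a naive marker in mouse, was higher in primed cells. Of 12 baits of primed marker genes, 2 (TCF4 and CYTL1) were higher in primed and 1 was higher in naive cells.

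SOX2 encodes an HMG-box transcription factor and lies in a wide stretch without other coding genes. Its bait, chr3:181709318-181727845, holds the whole gene. It had 18 interactions in naive and 27 in primed cells, more than 93.0% and 95.8% of all baits, which had a median of 3 in each state. The partners formed separate groups along the chromosome, and which group was listed differed between the states. Of 34 partners, 7 were naive-only, 11 shared and 16 primed-only. Mean H3K4me1 was higher in primed cells at 29, with a median difference of 0.74 against -0.06 over all fragments. Many partners are neighbouring fragments, 17 of them between 487.7 and 554.9 kb, so they are not separate observations.

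**Figure D1:**
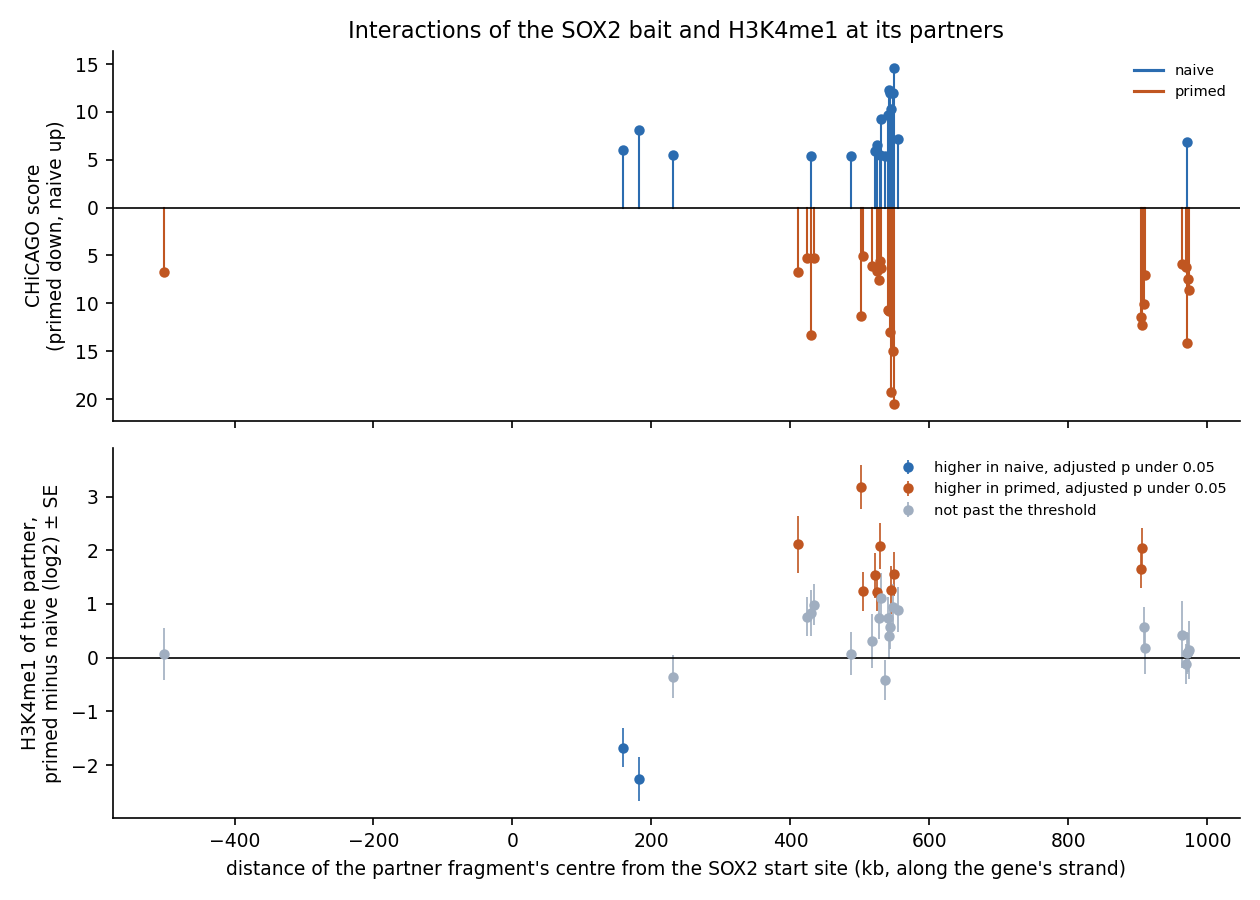
CHiCAGO scores of the SOX2 interactions (upper panel, naive upward and primed downward) and the H3K4me1 difference of each partner, primed minus naive on the log2 scale with its SE (lower panel), against distance in kb from the SOX2 start site. The nearest downstream contacts are listed in naive cells only and the 2 naive-higher partners lie there, while the contacts beyond 900 kb are, except 1, listed in primed cells only.

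The contacts nearest to SOX2 were listed in naive cells only. They lay 159.5, 181.8 and 231.7 kb downstream of the start, with scores of 5.98, 8.10 and 5.52. At the fragment at 181.8 kb (chr3:181893015-181894454), whose tile is the first sequence above, H3K4me1 was 0.52 in both naive libraries and -1.38, -2.70 and -1.16 in the primed ones. The groups did not overlap, and the fragment was lower in primed cells by -2.26 ± 0.41 (SE, limma adjusted p = 9.6e-05). The fragment at 159.5 kb (chr3:181870702-181872061) had 0.44 and 0.29 in naive and -1.16, -1.39 and -1.39 in primed cells. Again the groups were apart, with a difference of -1.68 ± 0.36 (adjusted p = 0.000739). The fragment at 231.7 kb did not pass the test (-0.36, adjusted p = 0.65). These 3 fragments were not baited and lay outside every GENCODE 44 gene.

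The densest group, also outside any annotated gene, lay 487.7 to 554.9 kb downstream and was contacted in both states. Of its 17 partners, 4 were naive-only, 9 shared and 4 primed-only. The fragment at 549.4 kb (chr3:182260134-182262513) had the highest SOX2 score in both states, 14.64 in naive and 20.49 in primed cells. H3K4me1 was higher in primed cells at 7 of the 17 partners, including 4 of the shared ones at 524.9, 529.1, 544.6 and 549.4 kb. The first 3 of these differed by 1.22, 2.08 and 1.26, and their highest adjusted p with a library left out was 0.101, 0.12 and 0.57. At the fragment at 549.4 kb it was -3.54 and -1.97 in naive and -0.89, -1.12 and -1.55 in primed cells, groups that did not overlap (1.56 ± 0.41, adjusted p = 0.00481). The call was lost without naive replicate 1 (adjusted p = 0.363). A listed contact and the mark did not always point to the same state: the fragment at 521.6 kb was contacted in naive cells only (score 5.97) and had more H3K4me1 in primed cells by 1.53 ± 0.42 (adjusted p = 0.00709), a call that was also lost without naive replicate 1 (adjusted p = 0.308).

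Within that group, the fragment at 501.1 kb (chr3:182212607-182213444) had the largest H3K4me1 difference of all partners. It held 2 and 2 reads in the naive libraries and 20, 13 and 29 in the primed ones, or -4.06 and -2.75 against 0.32, -0.12 and -0.88 on the log2 RPM scale. Every primed library was above both naive ones, by 3.18 ± 0.41 in the mean (adjusted p = 1.18e-06). SOX2 contacted it in primed cells only, with a score of 11.34, and the tile at its edge nearest to SOX2 is the second sequence above. The neighbouring fragment at 503.8 kb was also primed-only and primed-higher (1.23, adjusted p = 0.0118), a call lost without either naive library (adjusted p = 0.0759 and 0.087).

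**Figure D2:**
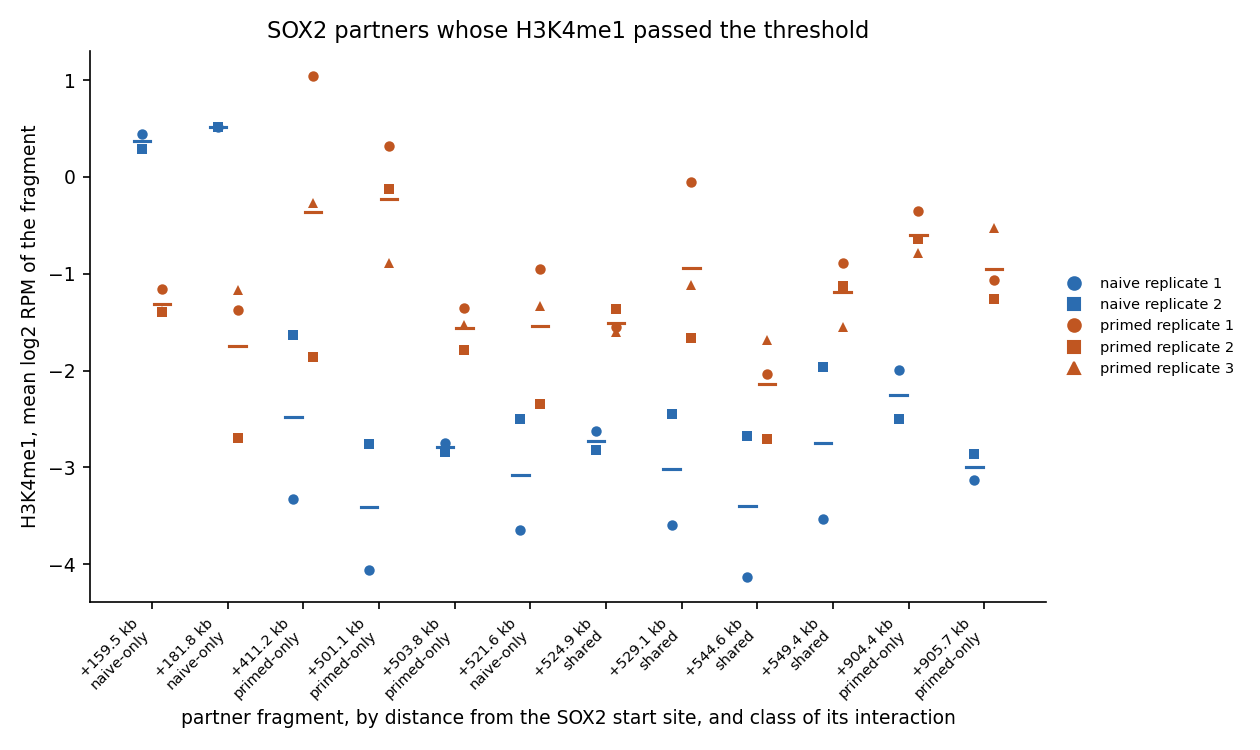
H3K4me1 (mean log2 RPM of the fragment) in each naive (blue) and primed (orange) library for the 12 SOX2 partners past the threshold, in order of distance from the SOX2 start, with bars at the group means. The 2 naive-only partners nearest to SOX2 are higher in naive libraries, with positive naive means. The other 10 are higher in primed libraries, where all their means are negative. Naive replicate 1 is usually the lower naive value where the mark is weak.

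Beyond 900 kb, 9 partners fell into a pair of groups that belonged almost entirely to primed cells. The 4 partners at 904.4 to 910.9 kb were primed-only, with scores up to 12.22. That score was reached at 905.7 kb (chr3:182617332-182617870), a fragment with a start of the long non-coding RNA gene ENSG00000287941. H3K4me1 there was -3.13 and -2.86 in naive and -1.06, -1.27 and -0.53 in primed cells, with no overlap (2.04 ± 0.37, adjusted p = 0.000104). These values rest on 3 and 0 reads in the naive and 5, 4 and 20 in the primed libraries. Its neighbour at 904.4 kb was higher in primed cells by 1.65 ± 0.37 (adjusted p = 0.00099; 0.0644 without naive replicate 2). Of the 5 partners at 964.2 to 973.0 kb, 4 were primed-only and 1, at 971.5 kb, was shared with scores of 6.86 in naive and 14.14 in primed cells. The 4 primed-only partners lay within 10 kb of the shared one. None of these 5 passed the H3K4me1 test, so no difference in the mark was detected there.

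The remaining SOX2 partners were 4 at 411.2 to 433.8 kb, of which 3 were primed-only, and 1 primed-only partner upstream, at -501.3 kb, in SOX2-OT, the long non-coding transcript that surrounds SOX2, with a score of 6.74. At 429.9 kb the shared contact scored 5.36 in naive and 13.27 in primed cells. The fragment at 411.2 kb had -3.32 and -1.63 in naive and 1.04, -1.86 and -0.27 in primed cells, from 2 and 2 reads and 15, 2 and 19 reads. The groups overlapped, although the fit called it primed-higher (2.12 ± 0.53, adjusted p = 0.00338), and without naive replicate 1 the adjusted p was 0.385.

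Of 28 tested tiles within the SOX2 bait, 2 were naive-higher and 2 primed-higher, smaller shares than those over all tested tiles. The bait as a whole had 0.76 and 0.39 in naive and 0.49, -0.21 and 0.20 in primed cells, which overlapped (-0.41, adjusted p = 0.54). In the tile fit, which called 26.1% of 465122 tested tiles naive-higher and 26.0% primed-higher, the tiles at -0.67 and -0.17 kb, just upstream of the start, were higher in naive cells (-1.71, adjusted p = 0.00804, and -1.60, adjusted p = 0.0269). Tiles 10.33 and 10.83 kb downstream were higher in primed cells (1.71, adjusted p = 0.0037, and 1.26, adjusted p = 0.0145). With each library left out in turn, only the tile at 10.33 kb kept its call. The highest adjusted p was 0.112 at -0.67 kb and 0.156 at 10.83 kb, both without naive replicate 2, and 0.193 at -0.17 kb without naive replicate 1. The tile at -0.17 kb was also lost with the replicate block (0.148).

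Of the 12 SOX2 partners past the threshold, those at 159.5, 181.8, 501.1 and 905.7 kb kept their call in every alternative run on them, including each library left out in turn. When all 34 partners were matched within 10 kb, 4 stayed naive-only and 8 primed-only. The 3 nearest naive-only contacts and the primed-only contacts at 904.4 to 910.9 kb have no partner of the other state within their groups.

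LIN28B had 2 baits. One holds the main start (chr6:104955145-104957480) and the other an upstream start together with those of LIN28B-AS1 and ENSG00000290011 (chr6:104930693-104942432). Interactions of the start-site bait went from 2 in naive to 13 in primed cells, and those of the upstream bait from 5 to 7. The baits contacted each other in naive cells only (84 reads, score 5.39). In primed cells both reached into the body of LIN28B: 13 partners at 60.1 to 125.0 kb took part in 19 interactions, of which 16 were primed-only and 3 shared. With partners matched within 10 kb, all LIN28B interactions divided into 14 shared, 6 primed-only and 3 naive-only ones, so most of the primed-only contacts lay within 10 kb of a naive contact.

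The strongest of these contacts was at 120.9 kb (chr6:105077721-105078313) and was listed in both states for both baits. Its scores were 7.24 in naive and 12.55 in primed cells from the start-site bait, and 7.99 and 12.52 from the upstream bait. H3K4me1 rested on few reads there, 7 and 1 in naive and 8, 4 and 13 in primed libraries. limma gave a difference of 1.32 ± 0.39 (adjusted p = 0.012), but edgeR's quasi-likelihood test on the recovered reads did not call it (adjusted p = 0.242). The same held at 121.4 kb (1.24, limma adjusted p = 0.0122, edgeR adjusted p = 0.349), with 3 and 0 reads in naive and 3, 2 and 6 in primed libraries. The call at 120.9 kb was lost without naive replicate 2 (adjusted p = 0.278), and that at 121.4 kb without naive replicate 1 (0.114) or primed replicate 1 (0.064). Of the 13 partners, 3 passed the limma test, all higher in primed cells. The third, at 83.4 kb (1.11, adjusted p = 0.0494), lost its call without either naive library (0.527 and 0.0847), without primed replicate 1 (0.296) and with the replicate block (0.0689).

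Mark and contacts went opposite ways at the LIN28B promoter itself. The start-site bait had more H3K4me1 in naive cells, with 1.07 and 0.78 against 0.69, -1.36 and -0.80, while it had fewer contacts there. All primed libraries were below both naive ones, but primed replicate 1 lay close to them. The difference was -1.41 ± 0.44 (adjusted p = 0.0183), and the adjusted p was 0.28 without naive replicate 1, 0.141 without naive replicate 2, 0.0593 with the replicate block and 0.062 with edgeR. The upstream bait had -1.12 and -0.79 in naive and -2.17, -2.18 and -2.17 in primed cells (-1.22 ± 0.36, adjusted p = 0.0118), with adjusted p-values of 0.0521 and 0.112 when the first or second naive library was left out.

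**Figure D3:**
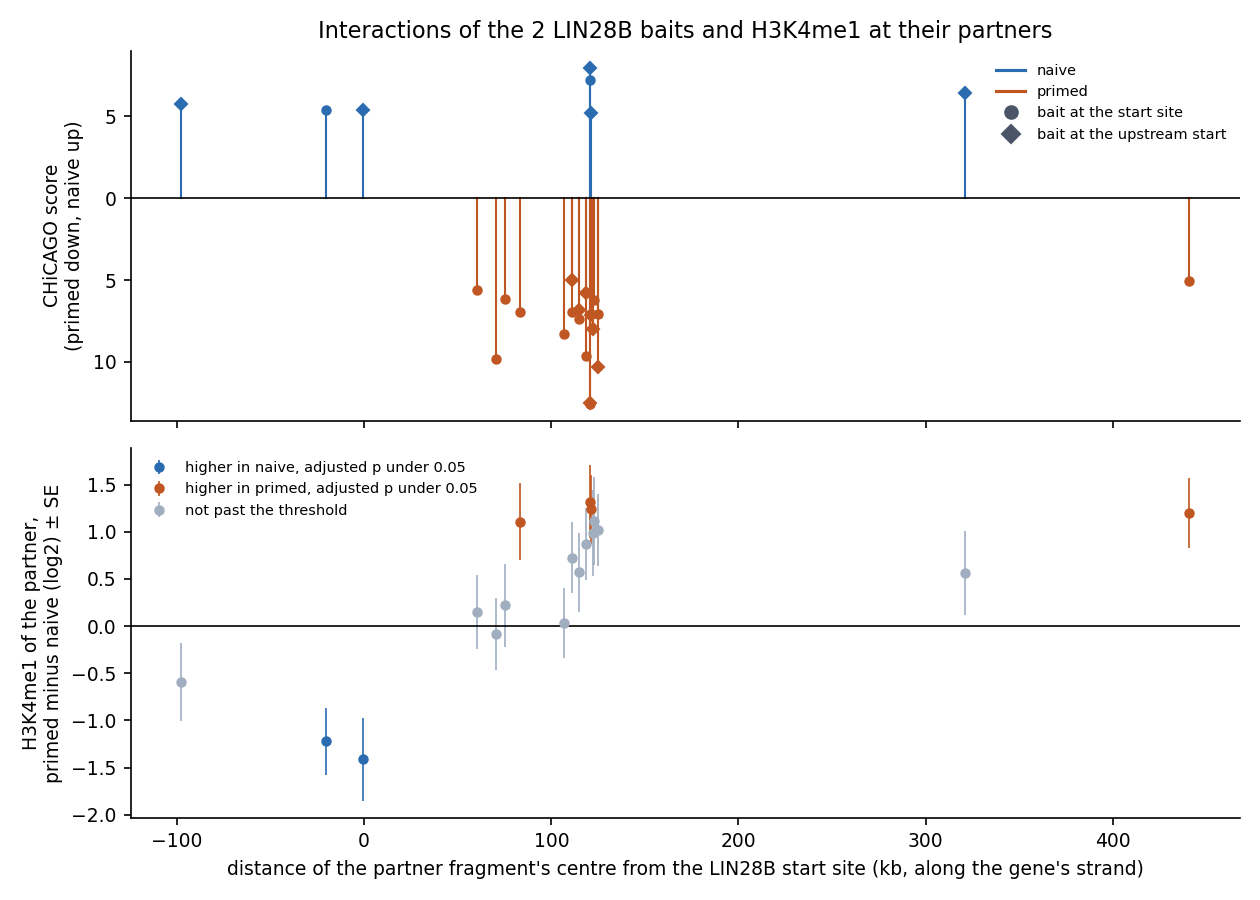
CHiCAGO scores of the interactions of both LIN28B baits (upper panel, naive upward and primed downward) and the H3K4me1 difference of each partner, primed minus naive on the log2 scale with its SE (lower panel), against distance in kb from the LIN28B start. Primed contacts fill the stretch from 60.1 to 125.0 kb, and the 2 naive-higher points are the baits themselves, which contact each other in naive cells.

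A further 3 LIN28B contacts lay outside the gene. The upstream bait contacted the HACE1 promoter fragment at -97.7 kb (score 5.79) and a fragment 321.2 kb downstream with a start of ENSG00000231628 (score 6.45) in naive cells only. The start-site bait contacted a fragment with an exon of PREP, a peptidase gene, 440.9 kb downstream in primed cells only, with a score of 5.03 from 8 reads. H3K4me1 in that fragment (chr6:105397338-105398653) was -1.99 and -2.19 in naive and -0.89, -1.30 and -0.49 in primed cells, with no overlap (1.20 ± 0.37, adjusted p = 0.0166). Its tile at 441.14 kb, the third sequence above, was higher in primed cells by 2.95 (adjusted p = 0.00112). The fragment call was lost without either naive library (adjusted p = 0.113 and 0.151), without primed replicate 3 (adjusted p = 0.115) and with the replicate block (adjusted p = 0.114).

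LIN28A, the paralog of LIN28B, had mostly the same contacts in both states. Its bait, chr1:26407220-26416330, had 4 naive and 3 primed interactions, of which 3 were shared. Bait H3K4me1 was -0.25 and 0.06 in naive and 0.37, -0.06 and -0.11 in primed cells, overlapping groups with a difference of 0.17 (adjusted p = 0.86). The shared partner nearest to the bait lay at -5.9 kb from the start, where negative distances are upstream (scores 8.39 in naive and 7.25 in primed cells). The other shared partners were the next fragment, at -11.1 kb (6.92 and 5.28), and the SH3BGRL3 promoter at -129.3 kb (5.48 and 6.74). The naive-only partner, at -302.1 kb, scored 5.01, just past the listing limit. At -11.1 kb (chr1:26395763-26403587) H3K4me1 was -1.14 and -0.45 in naive and -2.72, -2.03 and -2.61 in primed cells (-1.66, adjusted p = 0.00125; 0.0648 without naive replicate 2). Of this fragment, 92% lay in tiles with an Alu-type run, and without those tiles the difference was -0.27 (adjusted p = 0.782).

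SALL4, a zinc finger factor that partners OCT4 and NANOG, had fewer listed contacts in primed than in naive cells. Its bait, chr20:51800514-51805307, had 6 interactions in naive and 1 in primed cells. The 5 naive-only partners lay upstream, at -231.6 to -259.1 kb, 3 of them overlapping ZFP64, a zinc finger gene, and the highest score there was 10.42 at -256.0 kb, from 10 reads. None of the 5 passed the H3K4me1 test. The shared partner, at -109.3 kb (chr20:51904814-51918793), scored 7.53 in naive and 5.83 in primed cells.

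H3K4me1 at the SALL4 bait was also lower in primed cells, but only narrowly past the threshold. The bait had -0.98 and -0.79 in naive and -1.21, -2.28 and -2.32 in primed cells, with no overlap (-1.05, adjusted p = 0.0468). The call was lost without either naive library (adjusted p = 0.189 and 0.236), without primed replicate 2 (0.0731) or 3 (0.204), with the replicate block (0.192) and without Alu-type tiles (0.148). The shared partner had -0.23 and 0.15 in naive and -1.56, -1.47 and -1.66 in primed cells (-1.53, adjusted p = 0.00194). Without Alu-type tiles it had a difference of -1.04 (adjusted p = 0.0569), and without naive replicate 2 an adjusted p of 0.066.

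POU5F1 could be followed only in part. The bait at its upstream alternative start (chr6:31180216-31183747) had 1 interaction, in naive cells, with the ABCF1 promoter fragment 611.6 kb away. That contact rested on 3 reads (score 6.51), and the Hi-C bins of the pair held 16 counts in each state, or 0.340 (naive) and 0.238 (primed) of the mean at that distance. The bait's H3K4me1 overlapped between the states, with -0.80 and -0.05 in naive and -1.39, -0.28 and -1.14 in primed cells (-0.51, adjusted p = 0.43).

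The fragment with the main POU5F1 start (chr6:31170509-31180215) was read from a fit of all 860389 HindIII fragments of the genome, which called 6.55% naive-higher and 7.96% primed-higher. It had 0.67 and 0.85 in naive and 0.35, 0.05 and 0.13 in primed cells, apart in every library but not past the test (-0.58 ± 0.44, adjusted p = 0.553). The 4 tiles from -1.57 to -3.07 kb, upstream of the start, were strongly marked in both states, between 1.11 and 2.35 in every library, and none passed the test. Closer to the start, at -1.07 kb, the tile had 0.68 and 0.05 in naive and 1.76, 1.34 and 1.07 in primed cells, with no overlap (1.02, adjusted p = 0.0447). That call was lost without naive replicate 1 (0.0583) or 2 (0.301), without primed replicate 1 (0.118) or 3 (0.076) and in edgeR (0.0614).

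Farther upstream of POU5F1, 3 tiles were naive-higher, of 26 tested in the unlisted fragments with POU5F1 starts, where 1 was primed-higher. Of all tested tiles, 26.1% were naive-higher and 26.0% primed-higher. The tile at -5.57 kb, the POU5F1 sequence above, had 0.60 and 1.49 in naive and -0.56, -1.40 and -0.65 in primed cells, with no overlap (-1.91, adjusted p = 0.00831). The tile at -8.07 kb was higher in naive cells by a similar amount (-1.82, adjusted p = 0.00193), as was that at -8.57 kb (-1.10, adjusted p = 0.048). None of these 3 tiles held an Alu-type run, in contrast to most naive-higher tiles at LIN28A, SALL4 and PRDM14. Of the 3, only the tile at -8.07 kb kept its call with each library left out in turn. That at -5.57 kb lost it without naive replicate 2 (adjusted p = 0.177), and that at -8.57 kb without either naive library (0.262 and 0.104), without primed replicate 1 (0.0996) or 3 (0.173), with the replicate block (0.117) and with quantile normalisation (0.063). Farther out, in the baited fragment, the tile at -13.07 kb was primed-higher (1.38, adjusted p = 0.0212), a call lost without either naive library (0.123 and 0.0555), without primed replicate 1 (0.0702) or 3 (0.114) and with the replicate block (0.0527).

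PRDM14 encodes a PR-domain zinc finger factor. Its start fragment (chr8:70059666-70071769) had 0.40 and -0.14 in naive and -0.48, -1.17 and -0.74 in primed cells, with no overlap, but did not pass the test (-0.93 ± 0.43, adjusted p = 0.159). Within it, 7 tiles from 4.5 to 8.0 kb inside the gene were higher in naive cells. At 6.0 kb, the extreme of these, H3K4me1 was 0.64 and 1.05 in naive and -3.30, -2.98 and -2.73 in primed cells (-3.85, adjusted p = 0.00012). Near the start, at 2.5 kb, a tile was higher in primed cells (1.51, adjusted p = 0.0127). Without naive replicate 2 that difference was 0.98 (adjusted p = 0.176), and without primed replicate 3 the adjusted p was 0.0932. Of the 7 naive-higher tiles, those at 5.5 and 6.0 kb kept their call with each library left out. The start fragment and its upstream neighbour had 25 tested tiles, of which 8 were naive-higher and 1 primed-higher. Of all tested tiles, 26.1% were naive-higher and 26.0% primed-higher. Of the 8 naive-higher tiles of PRDM14, 6 held an Alu-type run.

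The only listed contact of the PRDM14 start fragment or its upstream neighbour came from the bait of RNU1-101P, a small RNA pseudogene (chr8:70076451-70085555). In naive cells only it contacted the fragment just upstream of the PRDM14 start (chr8:70071770-70075281), 7.48 kb away, with 260 reads and a score of 5.05. That bait was marked at -0.20 and 0.08 in naive and -1.59, -1.70 and -2.33 in primed cells (-1.82, adjusted p = 0.000426). The contacted fragment had 0.74 and 0.74 in naive and 0.92, 0.16 and 0.59 in primed cells, which overlapped (-0.18, adjusted p = 0.842). A tile within it, at -3.5 kb, was naive-higher (-1.03, adjusted p = 0.0259), a call lost without either naive library (0.167 and 0.0853), without primed replicate 3 (0.0753) and with the replicate block (0.0661).

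**Figure D4:**
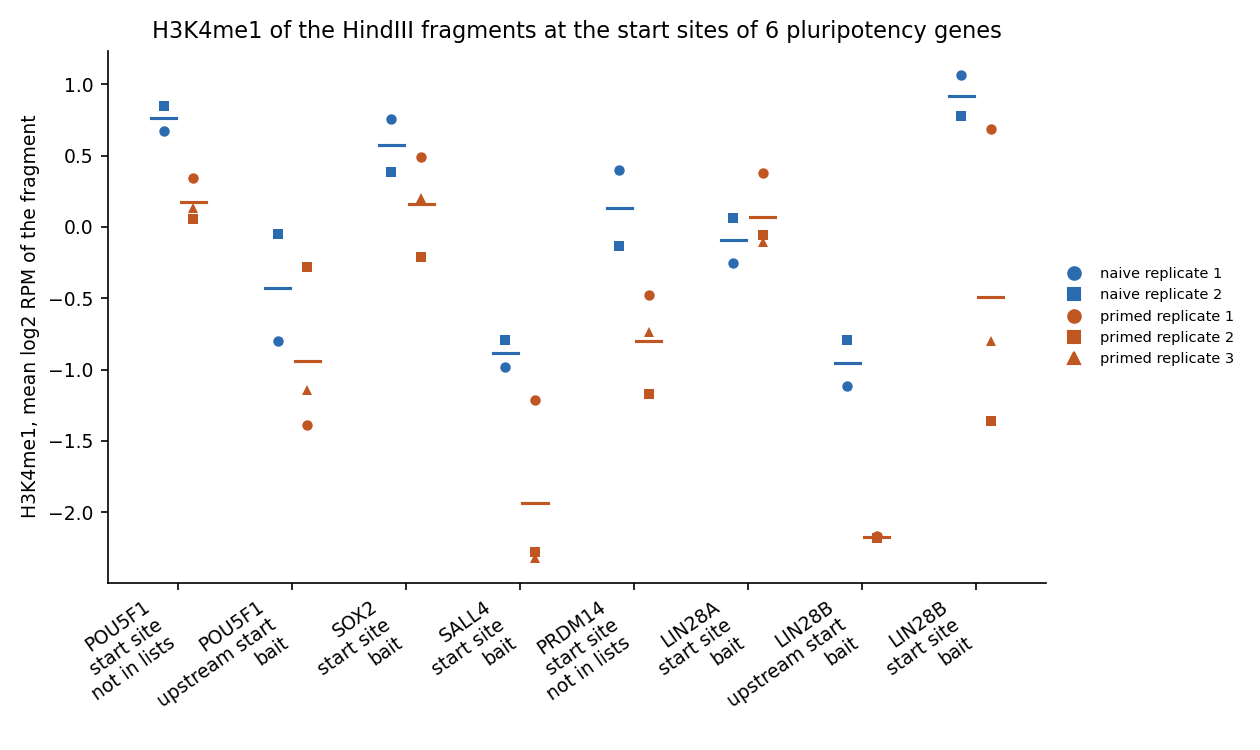
H3K4me1 (mean log2 RPM of the fragment) in each naive (blue) and primed (orange) library for the fragments at the start sites of the 6 genes, with bars at the group means. LIN28B start-site, POU5F1 and SOX2 fragments are the most marked in naive cells, and the groups overlap only for LIN28A, SOX2 and the POU5F1 upstream bait.

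Per length, the start-site fragments in naive cells ranked LIN28B (0.92), POU5F1 (0.76), SOX2 (0.57), PRDM14 (0.13), LIN28A (-0.10) and SALL4 (-0.89) by mean log2 RPM. In primed cells the order was POU5F1 (0.18), SOX2 (0.16), LIN28A (0.07), LIN28B (-0.49), PRDM14 (-0.80) and SALL4 (-1.94). POU5F1, SOX2 and LIN28A overlapped in primed libraries, and POU5F1 overlapped with both LIN28B and SOX2 in naive ones. LIN28B was first in the naive order and below POU5F1, SOX2 and LIN28A in the primed one, where its range overlapped with that of each other gene. SALL4 was last in both.

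The ordinary Hi-C maps, 1 library per state in 100 kb bins, covered the same contacts at lower resolution. Values are the ratio of a bin pair's count to the mean at that distance on the chromosome, with a 95% interval that covers counting error only. The SOX2 bin and that 200 kb downstream hold the naive-only contact at 231.7 kb. For this pair the ratio was 1.73 (1.55 to 1.93) in naive and 1.42 (1.27 to 1.59) in primed cells. At 500 kb it was 3.23 (2.82 to 3.68) in naive and 3.96 (3.55 to 4.40) in primed cells, and at 900 kb 3.25 (2.53 to 4.11) and 3.93 (3.33 to 4.60). The intervals overlapped at 200 and 500 kb. At 900 kb, 56.7% of bin pairs were listed in naive and 97.3% in primed cells. The mean there took unlisted pairs as empty, and was 21.5 counts in naive and 38.9 in primed cells. The 900 kb ratios to it, and those to the median of listed pairs (2.12 and 5.10), cannot be compared between the states. The SOX2 pair at 100 kb holds the naive-only contacts at 159.5 and 181.8 kb. Its intervals did not overlap, with 0.868 (0.779 to 0.964) in naive and 0.675 (0.601 to 0.755) in primed cells. The LIN28B body pair had 1.12 (1.02 to 1.24) in naive and 1.53 (1.42 to 1.65) in primed cells, also without overlap. The LIN28B pair at 400 kb, which holds the primed-only PREP contact, had 1.29 (1.06 to 1.55) in naive and 1.01 (0.828 to 1.21) in primed cells. For the SALL4 pair at 200 kb, which holds its naive-only contacts, the ratio was 1.11 (0.940 to 1.30) in naive and 0.913 (0.768 to 1.08) in primed cells. These SALL4 intervals overlapped. Of all 16 bin pairs, 9 had a higher ratio in primed cells, the 900 kb pair included.

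Alu-type runs moved with the naive-higher signal. A tile was counted when its sequence held one of the searched 9-letter runs common in Alu repeats. Such tiles made up 20.5% of all tested tiles, 37.5% of naive-higher and 9.35% of primed-higher tiles over the genome. Among the tiles of the 6 genes, 18 of 33 naive-higher (54.5%) and 3 of 21 primed-higher tiles held a run. By gene these were 3 of 3 naive-higher tiles for LIN28A, 4 of 5 for SALL4, 6 of 8 for PRDM14, 3 of 6 for LIN28B, 2 of 7 for SOX2 and 0 of 4 for POU5F1. The part of reads from repeats in these differences was not tested. Without such tiles, 3 of the 7 naive-higher fragments stayed past the threshold: the SOX2 partners at 159.5 kb (-1.41, adjusted p = 0.0128) and 181.8 kb (-2.08, adjusted p = 0.00341) and the LIN28B start-site bait (-1.41, adjusted p = 0.0366). Of the 14 primed-higher fragments 11 stayed, and those at 503.8 kb (0.96, adjusted p = 0.0886) and 544.6 kb (1.26, adjusted p = 0.0655) of SOX2 and 83.4 kb of LIN28B (1.17, adjusted p = 0.0731) did not.

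Short motifs were searched on both strands in the middle 300 bases of the tiles. The OCT octamer ATTTGCAT was in 3.02% of all tested tiles and in none of the 33 naive-higher or 21 primed-higher tiles of the 6 genes, and the SOX-OCT composite (0.0127% of all) was in none of them either. The SOX core CATTGT was in 6 naive-higher and 3 primed-higher tiles (15.3% of all), and TFAP2 GCCNNNGGC in 2 and 2 (8.36%). KLF GGGNGTGG was in 9 naive-higher and 0 primed-higher tiles (10.6%). Over the genome it was in 14.2% of naive-higher and 7.21% of primed-higher tiles. The overlap of KLF matches with Alu-type runs was not tested. OTX TAATCC was in 16 and 3 (17.3% of all, and 25.8% and 12.3% of naive-higher and primed-higher tiles over the genome). Its reverse lies within an Alu-type run, so the OTX matches overlap with the repeat count above. Both SOX2 tiles printed above held no match. A match is a run of letters, and says nothing here of binding.

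Among related genes listed for comparison, few baits passed the H3K4me1 test. Of 13 baits of other shared pluripotency genes, 2 were naive-higher (primed minus naive -1.26 for FGF4 and -1.18 for GDF3 on the log2 scale) and 1 primed-higher (FGF2, 1.41), with a median of -0.48. For the let-7 pathway in which LIN28A and LIN28B act, 1 of 10 baits was naive-higher (DROSHA, the nuclease that cuts primary microRNAs, -1.72) and 0 were primed-higher. Of 23 baits of SOX, SALL, POU and PRDM paralogs, 3 were naive-higher (SOX3, PRDM1 and SALL1) and 2 primed-higher (SOX1, 1.36, and POU3F2, 1.19), beside 16.4% and 7.04% over all baits. Contacts of the paralogs were 214 primed-only, 123 shared and 46 naive-only, beside 38.5%, 30.5% and 31.0% of all interactions. The 6 core genes had 33, 18 and 17. Among the paralogs, POU3F2 had 39 and PRDM13 30 primed-only interactions.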

How the data were processed

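H3K4me1 was measured by CUT&RUN in 2 naive and 3 primed H9 NK2 libraries, promoter contacts by PCHi-C (2 pooled replicates per state) and chromatin contacts by Hi-C (1 library per state). Per the methods, reads had been passed by the authors through Trim Galore and Bowtie2 (genome GRCh38) and lengthened to 300 bp, so a read can count in more than 1 tile; the submitters' processing notes name Bowtie2 2.2.7 and 2.3.2 and Trim Galore 0.4.5 and 0.5.0. The deposited H3K4me1 values are log2 RPM per 500 bp tile. The deposited PCHi-C lists hold read counts and CHiCAGO scores of at least 5 per fragment pair, made by the authors with HiCUP and CHiCAGO. The deposited Hi-C tables hold counts per pair of 100 kb bins, 31310843 in naive and 52056334 in primed cells. How reads with several equal mapping positions were treated is not given in the sources used here.

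All 88413 listed fragments matched HindIII fragments of the GRCh38 reference. Naive and primed fragments and tiles were compared with limma 3.58.1 (R 4.3.3, trend, empirical Bayes, Benjamini-Hochberg); tiles were tested where the log2 RPM was above 0 in at least 2 libraries. Whole reads were recovered from 100% of H3K4me1 values (tolerance 0.1 reads) and tested with edgeR 4.0.16 as an alternative. Scripts were tested on simulated data. The study's methods describe H3K4me1 samples as biological replicates. The members and gene lists were chosen with earlier results of these data known. Named items were every member, the genes at partner fragments, the top-scoring partner of each class and the farthest of each state, up to 5 fragments and 5 tiles with the largest differences past the threshold per direction, and at most 5 genes per list. Of the let-7 list, genes were entered under older and current names, and only baits found are counted. The ChIP-seq and input samples of the series were not analysed here. Counting intervals are exact Poisson intervals and cover counting error only. An item withheld from the text is not reported here.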

Additional observations from a re-analysis of the deposited data

How the results depend on the processing

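Counts of interactions moved with the score limit: 6 naive-only, 9 shared and 19 primed-only remained at a score of 7, and 1, 5 and 10 at a score of 10. With at least 10 reads 10 were naive-only, and with both ends matched within 10 kb 14 were naive-only, 40 shared and 14 primed-only. For fragments, keeping those above 0 in at least 2 libraries left 2568 naive-higher and 1766 primed-higher calls, 2 and 0 of them at the 6 genes, and fitting all HindIII fragments gave 56384 and 68503. Without the variance trend 9 member fragments were primed-higher, and without Alu-type tiles 3 were naive-higher. Leaving out 1 library at a time gave 6480 to 14234 naive-higher and 2543 to 9129 primed-higher fragments, with 2 to 8 and 4 to 22 at the 6 genes. For tiles, a limit of 0 in 1 library gave 205232 and 189583 calls and a limit of 1 in 2 libraries 24888 and 29780, with 8 and 5 at the 6 genes; leaving out 1 library gave 65670 to 134772 and 88587 to 137483, with 12 to 32 and 8 to 20 at the 6 genes. The POU5F1 upstream bait changed direction with its highest tile (0.67) and without Alu-type tiles (0.18), and neither value passed the test; the cause was not tested. With the replicate number as a block, 10600 and 7697 fragments and 99405 and 105611 tiles were called, 5 and 13 fragments at the 6 genes; the groups share only 2 numbers, whose libraries' deviations correlated at 0.07 and 0.19, so the numbers were not taken as a pairing. In edgeR, the median of all 83001 tested fragments was -0.07 without TMM scaling and 0.07 with it. Of the 21 member fragments past the threshold, 4 kept their call in every alternative run on them; 13 were lost without naive replicate 1, 11 without naive replicate 2 and 5 with the block. The edgeR, all-fragment and Alu-type alternatives were chosen after seeing the data. Sequencing depth limits the weakly marked fragments, such as the LIN28B partner at 120.9 kb with 1 read in naive replicate 2.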
